A study of Homo sapiens with 6 samples.

Results

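The kallikreins and epithelial protease inhibitors described here are 10 genes, KLK5, KLK6, KLK7, KLK8, KLK10, KLK11, SPINK5, ST14, SERPINB5 and SERPINB7, taken by name from a table of 58051 genes, and each was found once. The table holds RNA sequencing values of MDA-MB-231 cells, a human breast cancer line in long use and labelled wild type in every sample. Fluorescein-tagged recombinant human FABP4, a fatty acid carrier, was given to the cells, and a flow cytometer parted them into FABP4 binding cells (3 libraries) and FABP4 non-binding cells (3 libraries). The series title ties binding to invasion, and the comparison asks how the RNA of the 2 subpopulations differs. Values were taken as TPM, a share of all transcripts corrected for transcript length. Levels of different genes are set side by side on that reading, which no label states. All samples come from a single line, both groups went through the sort, and no label says that replicates are separate cultures or sorts, so a p-value covers no more than how far these 6 libraries scatter, and that scatter may be technical.

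Tissue kallikreins are secreted serine proteases made as inactive precursors and switched on by cleavage, often by each other. In the outer layers of skin, KLK5 and KLK7 cut the proteins that hold cells together so that the surface can shed, and the inhibitor encoded by SPINK5 restrains them. Matriptase, encoded by ST14, is a membrane-anchored serine protease of epithelia that can start such cascades. SERPINB5 encodes maspin, a serpin known for its loss in many breast carcinomas, and KLK10 is likewise known as a gene of normal breast epithelium that is often silenced in breast cancer.

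Promoter sequences of the genes are shown for reference. RefSeq (GRCh38.p14) supplied promoter entries, 250 bases before to 50 bases after a transcript start, for 8 of the 10 genes (14 entries); KLK8 and ST14 had no entry. Searched on both strands were TGANTCA, the letters bound by AP-1 factors, AACCNGTT, a grainyhead-type sequence, and TATAAA, the TATA box. None of the 3 was found in an entry of the 5 kallikreins covered. KLK5, the most abundant of the genes, is shown from 250 to 56 bases before its start, the part that touches no annotated exon (chr19:50953094-50953288, minus strand).
KLK5: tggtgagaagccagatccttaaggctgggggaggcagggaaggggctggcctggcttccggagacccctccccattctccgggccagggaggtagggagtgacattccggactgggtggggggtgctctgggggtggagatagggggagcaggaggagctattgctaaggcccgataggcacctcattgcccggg
KLK6, the gene with the largest log2 change of the 10, is shown from 250 to 83 bases before its start (chr19:50969674-50969841, minus strand).
KLK6: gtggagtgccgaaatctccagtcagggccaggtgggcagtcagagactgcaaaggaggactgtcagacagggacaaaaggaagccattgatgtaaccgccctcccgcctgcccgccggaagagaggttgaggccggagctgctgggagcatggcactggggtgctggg

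The 3 genes SPINK5, SERPINB5 and SERPINB7 did hold matches, shown as windows of 30 bases with the match in capitals. Starts are the transcript starts of the promoter entries. Unlike the stretches of KLK5 and KLK6, these windows were not limited to bases outside annotated exons. They lie inside the annotated spans of their genes, which begin at 63476761 (SERPINB5), 63752935 (SERPINB7) and 148025683 (SPINK5). SERPINB5 had an AP-1 sequence that begins 146 bases before the start (chr18:63476801-63476830, plus strand). SERPINB7 had it at 2 of its 3 starts with 2 matches each, of which the nearer ones, 39 and 45 bases before the start, are shown (chr18:63775368-63775397 and chr18:63777725-63777754, plus strand). SPINK5 had the grainyhead-type sequence, read on the minus strand, 61 bases before its start (chr5:148063908-148063937) and a TATA box 30 bases before it (chr5:148063939-148063968); that TATA box overlaps a second match on the other strand.
SERPINB5, AP-1: taacttcagccTGAATCAtttctttcaatt
SERPINB7, AP-1 at 39 bases: gtgctgtgctcTGAGTCAtagggaagccat
SERPINB7, AP-1 at 45 bases: tagggagtgtcTGAGTCAgaggctttatat
SPINK5, grainyhead type: tgaccttgaacAACTGGTTttatgtgggtg
SPINK5, TATA box: caccagtgcttTATAAAagtaaactgcatc
The AP-1 letters were in promoters of 2 of the 8 genes, against 9.37% of all genes with an entry. The grainyhead-type letters were in 1 of the 8, against 2.14%, and the TATA box in 2 of the 8 (SPINK5 and SERPINB7), against 14.0%. A match describes the letters of the window and nothing of a bound factor.

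All 10 genes had at least 1 TPM in 3 or more libraries and were tested, 9 of them at 1 TPM or more in all 6 libraries. All 10 had a negative log2 change in FABP4 binding cells, and 4 were lower past the threshold: KLK5, KLK6, KLK10 and SERPINB5 (limma on log2(TPM + 1), Benjamini-Hochberg adjusted p under 0.05 over 15574 tested genes). Of all tested genes, 7.12% were lower by the same rule. No gene of the 10 was higher, also at an unadjusted p under 0.05, where 8 of the 10 and 11.7% of all tested genes were lower. In 7 of the 10 genes every binding library lay under every non-binding library, against 13.6% of all tested genes. The median log2 change of the 10 was -0.80, whereas that of all tested genes was 0.36. Summed over the 10 genes, binding cells held 109 ± 21.4 TPM, against 184 ± 13.5 TPM in non-binding cells (SD, n = 3 each). In bulk RNA, fewer cells that make these transcripts and less transcript per cell cannot be told apart.

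**Figure D1:**
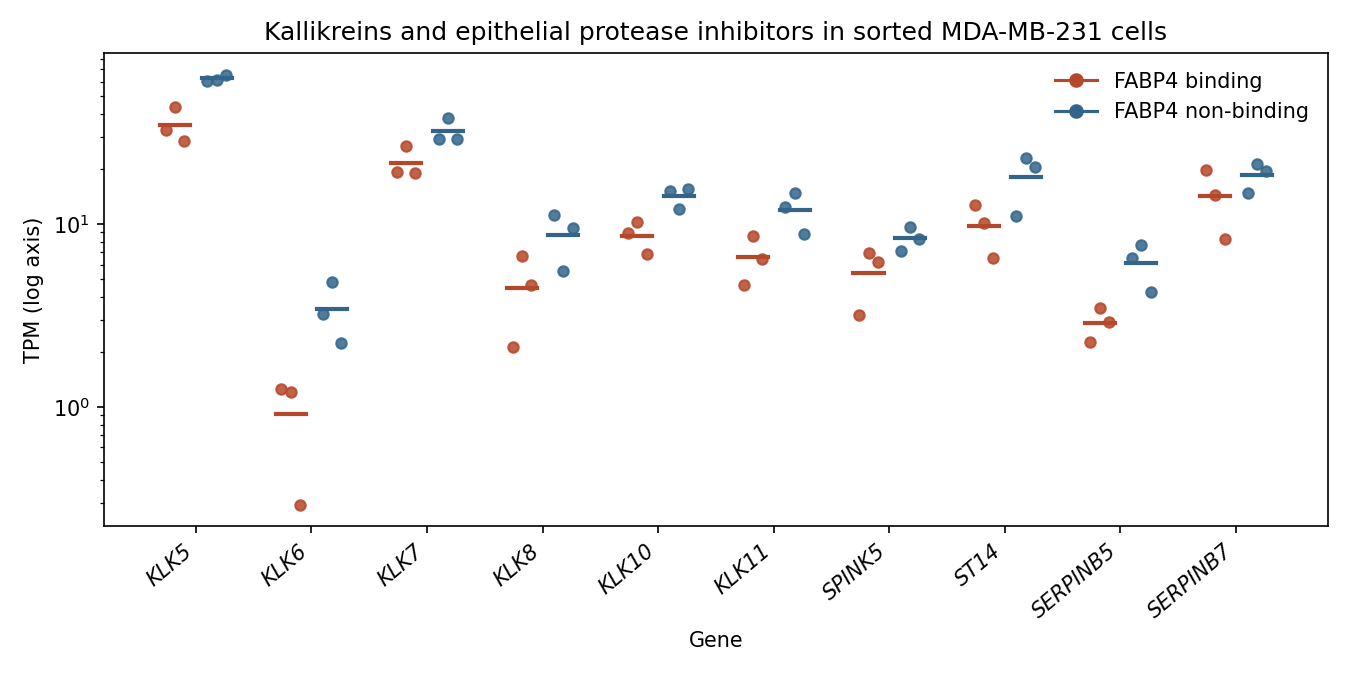
TPM (log axis) of the 10 genes in each library, with FABP4 binding libraries in red on the left and FABP4 non-binding libraries in blue on the right of each gene; points are libraries and bars are group means. The groups do not overlap for 7 genes and overlap for KLK8, ST14 and SERPINB7.

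The libraries differed in more than these genes. Between 15810 and 15945 genes reached 1 TPM in binding libraries and between 15300 and 15458 in non-binding libraries, and transcripts of the mitochondrial genome took 9.99% to 11.2% and 2.98% to 3.38% of TPM. Since TPM are shares, a class that takes more leaves less for all others together. After shifting the libraries to 1 common median of log2(TPM + 1), 7 of the 10 genes were lower (all but KLK8, SPINK5 and SERPINB7) against 12.1% of all genes, and with quantile normalization 6 were lower (ST14 also missing) against 8% of all genes. With TPM rescaled without mitochondrial transcripts 2 were lower, KLK5 and KLK6, against 5.16% of all genes. The median log2 change of the 10 was then -0.70, against -0.80 as reported. Calls over all genes split into 3047 higher and 1109 lower, 962 and 1890 under the common median, 1197 and 1246 under quantile normalization, and 4477 and 813 under the rescaling. The calls also depended on which libraries were used. Without non-binding replicate 2 or non-binding replicate 3 none of the 10 passed by limma, when 0.668% and 0.239% of all genes were lower. The median log2 change of the 10 was -0.67 and -0.75 in these fits. At an unadjusted p under 0.05, 5 and 6 of the 10 were lower in these fits, against 9.94% and 9.31% of all genes. Without binding replicate 1 or binding replicate 3 only KLK5 passed, against 6.22% and 4.82% of all genes, so 1 of 10 is near that background. The 2 genes that passed were KLK5 and KLK7 without binding replicate 2, against 5.54% of all genes, and KLK5 and ST14 without non-binding replicate 1, against 3.69%. Every log2 change of the 10 genes stayed negative in each of these fits.

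KLK5, a trypsin-like kallikrein that activates other kallikreins (ENSG00000167754, chromosome 19, 50943303 to 50953093, minus strand, hg38), had 32.7, 43.6 and 28.5 TPM in binding libraries, against 60.9, 61.7 and 65.7 TPM in non-binding libraries. The groups were far apart, with the highest binding library well under the lowest non-binding one, and the non-binding libraries lay close together. The log2 change was -0.85 (SE 0.18; limma, Benjamini-Hochberg adjusted p = 0.0193), or -1.20 relative to the median of all genes. KLK5 kept its call in 12 of 14 alternatives (adjusted p 0.0117 to 0.0631 by limma) and lost it without non-binding replicate 2 and without non-binding replicate 3.

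KLK7, the chymotrypsin-like partner of KLK5 in the horny layer (ENSG00000169035), had 19.4, 26.7 and 18.9 TPM in binding libraries, against 29.2, 38.0 and 29.01 TPM in non-binding libraries. All binding libraries were lower, but the highest of them, replicate 2, lay near the lowest non-binding ones. With a log2 change of -0.55 (95% interval -0.997 to -0.107), KLK7 missed the threshold (limma, Benjamini-Hochberg adjusted p = 0.0645). It passed in 4 of 14 alternatives, among them the common median, quantile normalization and the fit without binding replicate 2, with log2 changes of -0.87, -0.85 and -0.71 (adjusted p over all alternatives 0.0346 to 0.176 by limma).

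KLK6, a trypsin-like kallikrein best known from brain and skin (ENSG00000167755), was the least abundant of the 10, with 1.26, 1.21 and 0.291 TPM in binding libraries, against 3.24, 4.81 and 2.23 TPM in non-binding libraries. All binding libraries were lower and replicate 3 lowest. The log2 change was -1.21 (SE 0.36; limma, Benjamini-Hochberg adjusted p = 0.0417), and the call was lost with each of the 6 libraries left out, without a filter and with a pseudocount of 0.1, where the log2 change was -1.93 (adjusted p over all alternatives 0.0286 to 0.118). The antisense gene AC011483.2 overlaps exons of KLK5 and KLK6 and reached at most 0.92 TPM; the strand setting of the count is not given, so its reads and theirs cannot be told apart.

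KLK10, the kallikrein first described in normal mammary epithelial cells (ENSG00000129451), had 8.89, 10.2 and 6.87 TPM in binding libraries, against 15.1, 12.1 and 15.6 TPM in non-binding libraries. The groups did not overlap, with binding replicate 2 nearest to non-binding replicate 2. The log2 change was -0.67 (SE 0.21; limma, Benjamini-Hochberg adjusted p = 0.0458). The call held in 4 of 14 alternatives (adjusted p 0.0202 to 0.128 by limma) and was lost, among others, with each of the 6 libraries left out, without a filter, without an intensity trend and with the rescaling.

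KLK8 and KLK11, which encode neuropsin and a further trypsin-like kallikrein, did not pass. KLK8 (ENSG00000129455) had 2.13, 6.71 and 4.63 TPM in binding libraries, against 11.1, 5.56 and 9.47 TPM in non-binding libraries, and the groups overlapped through binding replicate 2 and non-binding replicate 2. Its log2 change was -0.87 (95% interval -1.74 to -0.01; limma, Benjamini-Hochberg adjusted p = 0.109), and it was -0.52 without binding replicate 1. A protein-coding gene on the same strand, AC011473.4, overlaps exons of KLK8 and reached up to 5.79 TPM, so the division of reads between the 2 is uncertain. KLK11 (ENSG00000167757) had 4.62, 8.61 and 6.47 TPM in binding libraries, against 12.3, 14.7 and 8.79 TPM in non-binding libraries, which did not overlap by a narrow gap. Its log2 change was -0.78 (95% interval -1.40 to -0.16; limma, Benjamini-Hochberg adjusted p = 0.0621).

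**Figure D2:**
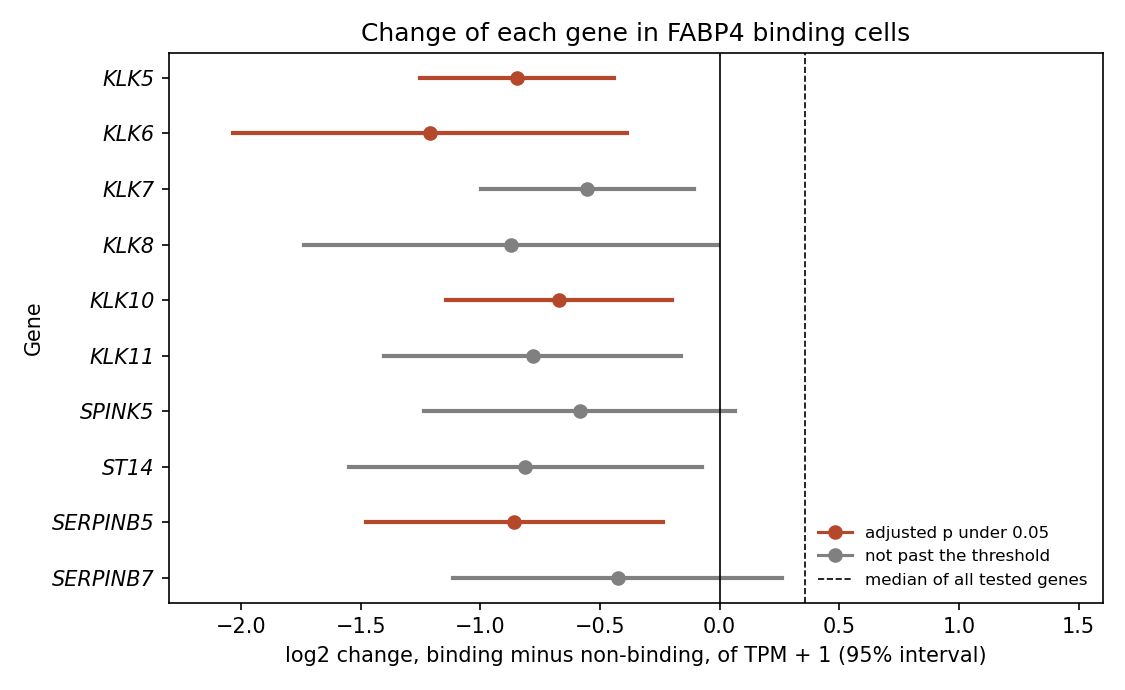
Log2 change of each gene (binding minus non-binding, on log2(TPM + 1)) with its 95% interval from limma; red marks an adjusted p under 0.05, the solid line is no change and the dashed line is the median of all tested genes, 0.36. All 10 points lie left of the solid line, and the intervals of SPINK5 and SERPINB7 cross it.

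The 15 tissue kallikrein genes lie side by side on chromosome 19, from KLK1 at 50819148 to KLK14 ending at 51084245 (hg38, GENCODE release 29). The 6 genes described above fall within a stretch that runs from KLK5 to KLK11 and also holds KLK9. KLK9 was listed at 0, 0 and 0.685 TPM in binding libraries, against 0.951, 0 and 0 TPM in non-binding libraries, so the stretch was not evenly expressed. Outside the stretch, KLK2, KLK3, KLK12 and KLK15 were at 0 in all 6 libraries. KLK1, the gene of the enzyme that releases kinins, was the highest of the other 9, with 2.06 ± 0.758 TPM in binding cells, against 3.78 ± 0.725 TPM in non-binding cells (SD, n = 3 each), and its log2 change of -0.66 was not called (limma, Benjamini-Hochberg adjusted p = 0.114). KLK1 and KLK14 were the only ones of these 9 to reach the filter, and neither was called.

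**Figure D3:**
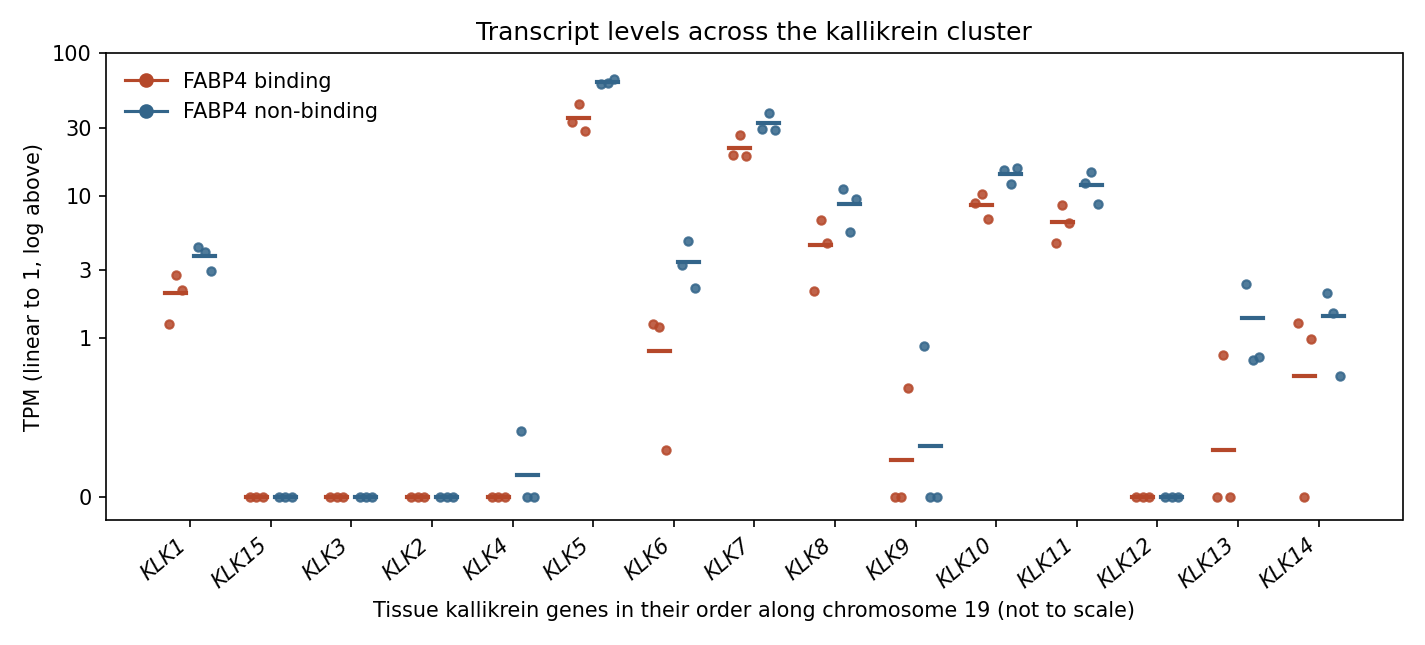
TPM of the 15 tissue kallikrein genes in their order along chromosome 19 (spacing not to scale), on an axis that is linear up to 1 TPM and logarithmic above; FABP4 binding libraries in red on the left, FABP4 non-binding libraries in blue on the right, bars are group means. KLK5, KLK7, KLK8, KLK10 and KLK11 stand above the rest, with KLK9 near 0 between them.

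SPINK5, the inhibitor of KLK5 and KLK7 whose loss causes Netherton syndrome (ENSG00000133710, chromosome 5, 148025683 to 148137289), had 3.17, 6.94 and 6.17 TPM in binding libraries, against 7.11, 9.66 and 8.26 TPM in non-binding libraries. The groups did not overlap, but binding replicate 2 almost reached non-binding replicate 1. The log2 change was -0.59 (95% interval -1.24 to 0.07; limma, Benjamini-Hochberg adjusted p = 0.143), and it passed in none of 14 alternatives. Without binding replicate 1 it was -0.30, and it was -0.90 with the common median. The ratio of KLK5 to SPINK5 was 10.3, 6.29 and 4.62 in binding libraries, against 8.56, 6.38 and 7.95 in non-binding libraries. These ratios overlapped, as did those of KLK7 to SPINK5 (means 4.34 ± 1.58 in binding and 3.85 ± 0.306 in non-binding libraries; SD, n = 3 each). Of 9 other Kazal-type inhibitor genes of the SPINK family, 4 were at 0 in all libraries and 1 reached the filter. That gene, SPINK6, an inhibitor of kallikreins in skin, was listed at 1.35, 2.44 and 0 TPM in binding libraries, against 3.27, 1.18 and 0 TPM in non-binding libraries, and was not called (limma, Benjamini-Hochberg adjusted p = 0.939).

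SERPINB5 (ENSG00000206075, chromosome 18, 63476761 to 63505085) had 2.27, 3.48 and 2.92 TPM in binding libraries, against 6.49, 7.68 and 4.26 TPM in non-binding libraries. The groups did not overlap, and the lowest non-binding library was replicate 3. The log2 change was -0.86 (SE 0.27; limma, Benjamini-Hochberg adjusted p = 0.0487), the nearest to the threshold among the 4 calls. The call held in 4 of 14 alternatives (adjusted p 0.0285 to 0.137 by limma) and was lost, among others, with each of the 6 libraries left out, without a filter, without an intensity trend and with the rescaling. SERPINB7 (ENSG00000166396), a skin serpin whose loss causes a thickening of palms and soles, had 19.8, 14.5 and 8.29 TPM in binding libraries, against 14.8, 21.3 and 19.4 TPM in non-binding libraries. The groups overlapped widely, since binding replicate 1 exceeded 2 non-binding libraries. Its log2 change of -0.43 had a 95% interval of -1.11 to 0.26 (limma, Benjamini-Hochberg adjusted p = 0.294). Single libraries moved it, to -0.11 without binding replicate 3 and to -0.69 without binding replicate 1.

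Other serpins of the same clade moved in both directions, 3 higher and 1 lower of 8 tested among 11 genes, with a median log2 change of 0.31. Over all tested genes 19.6% were higher and 7.12% lower. SERPINB2, which inhibits urokinase and lies in the same cluster on chromosome 18 as SERPINB5 and SERPINB7, had 3.07, 3.90 and 2.93 TPM in binding libraries, against 7.85, 8.18 and 10.3 TPM in non-binding libraries, with no overlap (log2 change -1.18, SE 0.22; limma, Benjamini-Hochberg adjusted p = 0.0155). SERPINB8, also of that cluster, was higher at 18.96 ± 0.726 TPM in binding cells, against 11.3 ± 1.88 TPM in non-binding cells. SERPINB1 and SERPINB6, which lie on chromosome 6 and inhibit proteases of neutrophil granules, were higher as well. SERPINB1 averaged 52.6 ± 9.74 TPM in binding cells, against 27.8 ± 0.975 TPM in non-binding cells, and SERPINB6 30.3 ± 6.96 and 15.6 ± 2.50 TPM (SD, n = 3 each). Common-median scaling and quantile normalization each ended the calls of SERPINB6 and SERPINB8. All 4 calls were lost without non-binding replicate 2 and without non-binding replicate 3, that of SERPINB6 also without non-binding replicate 1, and that of SERPINB8 also without binding replicate 2 and without binding replicate 3.

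ST14 (ENSG00000149418, chromosome 11, 130159562 to 130210376) had 12.7, 10.1 and 6.48 TPM in binding libraries, against 11.02, 22.8 and 20.5 TPM in non-binding libraries. Non-binding replicate 1 stood apart from the other two and fell within the binding range, so the groups overlapped. The log2 change was -0.81 (95% interval -1.55 to -0.08; limma, Benjamini-Hochberg adjusted p = 0.0873), and it was -1.12 without non-binding replicate 1, where ST14 passed (adjusted p = 0.0469 by limma, within 0.0450 to 0.227 over all alternatives). It was -0.57 without binding replicate 3 and -0.62 without non-binding replicate 2.

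The partners of matriptase split. PRSS8, which encodes the membrane-anchored protease prostasin, had 39.1, 29.9 and 24.1 TPM in binding libraries, against 55.2, 73.5 and 55.7 TPM in non-binding libraries, with no overlap (log2 change -0.98, SE 0.21; limma, Benjamini-Hochberg adjusted p = 0.0202). SPINT1, a Kunitz-type inhibitor of matriptase, was lower too, at 10.4, 9.42 and 10.7 TPM in binding libraries, against 16.7, 18.1 and 19.9 TPM in non-binding libraries (log2 change -0.78, SE 0.16; limma, Benjamini-Hochberg adjusted p = 0.0199). SPINT2, the related inhibitor of matriptase and prostasin, was higher, at 226, 184 and 179 TPM in binding libraries, against 113, 97.2 and 104 TPM in non-binding libraries (log2 change 0.89, SE 0.14; limma, Benjamini-Hochberg adjusted p = 0.0125).

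The ratios of protease to inhibitor transcripts differed by inhibitor. The ratio of ST14 to SPINT1 was 0.967 ± 0.323 in binding and 0.985 ± 0.305 in non-binding libraries, with overlap. The ratio of ST14 to SPINT2 was 0.0561, 0.0551 and 0.0362 in binding libraries, against 0.0972, 0.235 and 0.198 in non-binding libraries, with no overlap. The ratio of PRSS8 to SPINT2 averaged 0.157 ± 0.0201 in binding and 0.593 ± 0.143 in non-binding libraries. Since PRSS8 was lower and SPINT2 higher in every binding library, this ratio could not overlap and adds nothing to those calls. All ratios are of TPM, with SD and n = 3 each, and are described without a test. Of 19 genes of matriptase partners and other membrane serine proteases, 8 were tested, 1 was higher and 2 were lower, where 19.6% of all tested genes were higher and 7.12% lower. All 3 calls were lost without non-binding replicate 3, and those of PRSS8 and SPINT1 also without non-binding replicate 2.

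Of 13 genes of substrates and receptors of these proteases, 12 were tested, 6 were higher, 1 was lower and 5 were not called, where 19.6% of all tested genes were higher and 7.12% lower. F2RL1, the protease-activated receptor that kallikreins and matriptase can cleave, had 351, 315 and 279 TPM in binding libraries, against 179, 120 and 164 TPM in non-binding libraries, with no overlap (log2 change 1.04, SE 0.18; limma, Benjamini-Hochberg adjusted p = 0.0136). PLAU, the urokinase gene, averaged 126 ± 33.1 TPM in binding cells, against 54.4 ± 2.43 TPM in non-binding cells, and its receptor gene PLAUR 79.5 ± 7.71 and 40.7 ± 5.46 TPM (SD, n = 3 each). The thrombin receptor gene F2R averaged 20.4 ± 1.14 and 11.8 ± 3.39 TPM, and DSG2, the desmoglein of simple epithelia, 38.3 ± 6.04 and 21.0 ± 3.88 TPM; common-median scaling and quantile normalization each ended both calls. CAMP, whose peptide is processed by kallikreins in skin, was also called higher and was listed at 4.66, 4.80 and 8.49 TPM in binding libraries, against 0, 0 and 1.18 TPM in non-binding libraries.

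Among the skin adhesion genes of the same list, 1 was called. DSG1, the desmoglein of the upper epidermis, had 2.08, 2.95 and 2.08 TPM in binding libraries, against 8.22, 6.09 and 4.87 TPM in non-binding libraries, with no overlap (log2 change -1.12, SE 0.26; limma, Benjamini-Hochberg adjusted p = 0.0239). DSC1 averaged 2.07 ± 1.31 TPM in binding cells, against 5.80 ± 1.58 TPM in non-binding cells, and CDSN, the corneodesmosin gene, 9.11 ± 3.15 and 17.0 ± 5.10 TPM (SD, n = 3 each). By limma the Benjamini-Hochberg adjusted p was 0.0513 for DSC1 and 0.0630 for CDSN, and neither was called. DSC1 and CDSN were outside the rule for named genes and were chosen after their values were seen. Without non-binding replicate 3 the calls of F2RL1, PLAU, PLAUR, F2R, DSG2 and DSG1 were lost, while CAMP kept its call with each library left out. Those of F2R, DSG2 and DSG1 were lost also without non-binding replicate 2 and without binding replicate 3, that of DSG1 also without non-binding replicate 1, and that of F2R also without binding replicate 1 and without binding replicate 2.

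**Figure D4:**
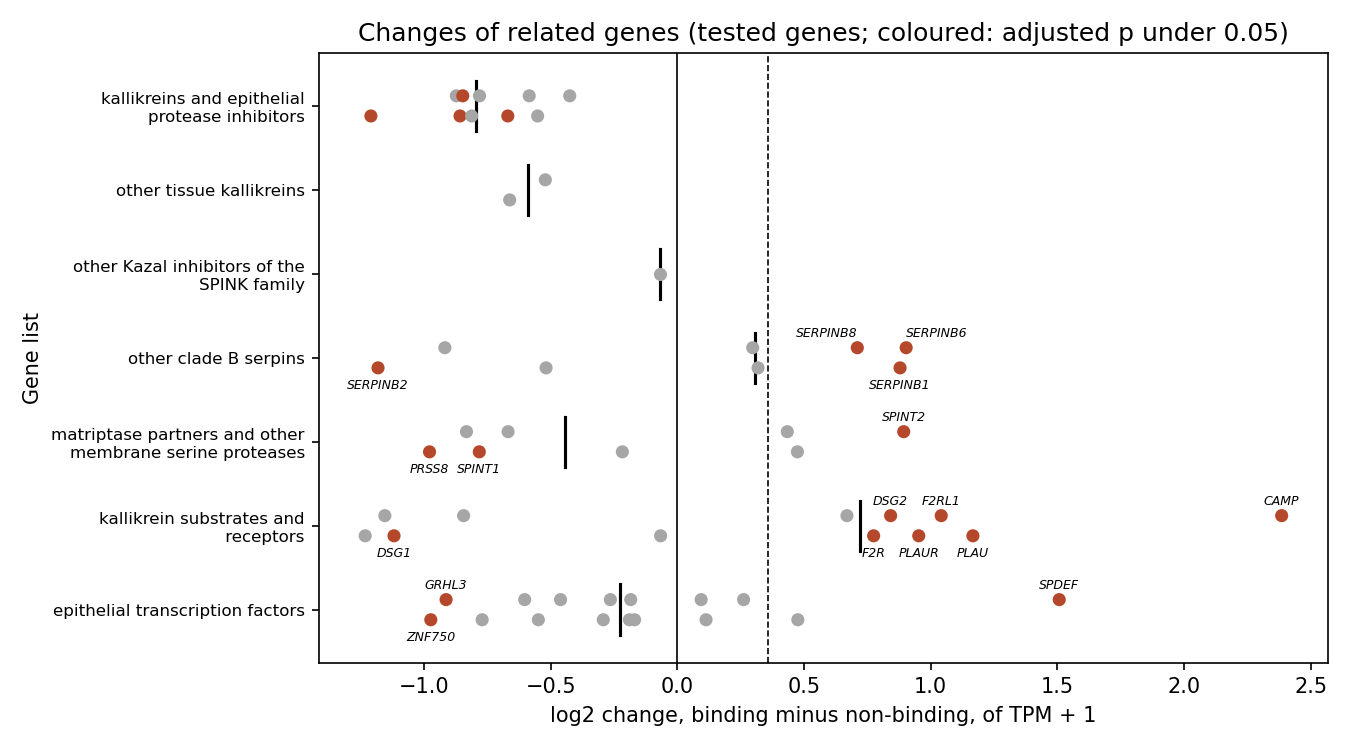
Log2 change (binding minus non-binding, on log2(TPM + 1)) of each tested gene in 7 lists; points are genes, red points passed an adjusted p of 0.05, short black lines are list medians, and the dashed line is the median of all tested genes, 0.36. The 10 kallikreins and inhibitors all lie below 0, while other clade B serpins and kallikrein substrates lie on both sides.

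Of 19 genes of epithelial transcription factors, 16 were tested, 1 was higher and 2 were lower. By the same rule 19.6% of all tested genes were higher and 7.12% lower. The list also holds ESRP1 and ESRP2, which encode epithelial splicing regulators. GRHL3, a grainyhead factor of the skin barrier, had 3.90, 4.69 and 5.26 TPM in binding libraries, against 9.74, 9.21 and 9.63 TPM in non-binding libraries, with no overlap (log2 change -0.91, SE 0.19; limma, Benjamini-Hochberg adjusted p = 0.0202). ZNF750, a factor of late epidermal differentiation, averaged 4.01 ± 1.54 TPM in binding cells, against 8.61 ± 1.61 TPM in non-binding cells (SD, n = 3 each). SPDEF, a factor of secretory epithelia, was higher, at 8.09 ± 3.20 TPM in binding cells, against 2.20 ± 1.12 TPM in non-binding cells, a call that common-median scaling and quantile normalization each ended. All 3 calls were lost without non-binding replicate 2 and without non-binding replicate 3. That of ZNF750 was lost with any library left out but binding replicate 2, without a filter and without an intensity trend, that of GRHL3 also without non-binding replicate 1, and that of SPDEF also without binding replicate 2 and without binding replicate 3. TP63, the defining factor of squamous epithelium, was low at 0.932, 1.36 and 0.232 TPM in binding libraries, against 2.04, 1.39 and 1.42 TPM in non-binding libraries, and was not called (limma, Benjamini-Hochberg adjusted p = 0.256; named after its values were seen).

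The order of the levels was much the same in both groups, with KLK5 first, then KLK7, SERPINB7, ST14, KLK10 and KLK11, and KLK6 last. KLK5 made up 30.6% to 33.0% of the summed TPM of the 10 genes in binding libraries and 31.1% to 35.9% in non-binding libraries. In binding cells the libraries of neighbouring genes in this order overlapped except between KLK5 and KLK7 and between SERPINB5 and KLK6. In non-binding cells they overlapped except between KLK5 and KLK7 and between KLK7 and SERPINB7.

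Within the binding group the genes did not follow a single order of libraries. Binding replicate 2 was the highest for 7 of the 10 genes and the lowest for none. The other 3, KLK6, ST14 and SERPINB7, were highest in binding replicate 1. Binding replicate 3 was lowest for 6 genes, among them KLK5, KLK7 and KLK10, and replicate 1 for KLK8, KLK11, SPINK5 and SERPINB5. Among non-binding libraries, replicate 2 was highest for 7 of the 10 genes.

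Among the lists of cell type markers, only those of keratinocytes had lower sums in every binding library than in any non-binding library. The labelled line was visible in its markers, since VIM averaged 931 ± 74.1 TPM in binding cells, against 830 ± 7.90 TPM in non-binding cells, MSN 524 ± 80.7 and 658 ± 42.4 TPM, and AXL 482 ± 153 and 236 ± 17.0 TPM (SD, n = 3 each), and the oestrogen receptor gene ESR1 was at 0 in all libraries. Keratinocyte markers were abundant as well. Suprabasal and cornified markers (27 genes, among them DSG1, DSC1, CDSN and TGM1) summed to between 1855 and 3588 TPM in binding libraries and between 4026 and 5483 TPM in non-binding libraries. Of 25 tested, 10 were lower and none higher, with a median log2 change of -0.81, close to the -0.80 of the kallikreins and inhibitors. By the same rule 7.12% of all tested genes were lower and 19.6% higher. KRT10 averaged 553 ± 123 TPM in binding cells, against 1189 ± 194 TPM in non-binding cells (SD, n = 3 each). SBSN averaged 416 ± 82.7 and 726 ± 95.2 TPM and was called lower. LOR averaged 407 ± 213 and 601 ± 179 TPM, its groups overlapped and it was not called. Basal keratinocyte markers (13 genes) summed to between 1649 and 2131 TPM in binding cells, and between 2664 and 3332 TPM in non-binding cells. Of these, 8 were lower and 2 higher, the integrin genes ITGA6 and ITGB4, named after their values were seen. The list also holds KRT6A, KRT6B, KRT16 and KRT17, keratins of activated keratinocytes, so it is not purely basal. KRT14 averaged 388 ± 68.6 TPM in binding cells, against 781 ± 143 TPM in non-binding cells. The part of these markers in the change of the 10 genes was not tested.

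In no other marker list was the sum lower in every binding library than in any non-binding library. The shares to set the counts below against are 19.6% higher and 7.12% lower over all tested genes. Luminal markers were higher in 5 of 10 tested genes and lower in 1. They summed to between 1096 and 1516 TPM in binding cells, and between 575 and 616 TPM in non-binding cells. MDA-MB-231 identity markers were higher in 3 of 8 and lower in none, with sums of 2365 to 2795 TPM in binding cells, against 2013 to 2073 TPM in non-binding cells. Leukocyte markers summed to between 21.0 and 37.7 TPM in binding and between 24.5 and 33.6 TPM in non-binding libraries, with MS4A1, CD3D and NKG7 at 0 throughout and the most abundant, LYZ, CD68 and PTPRC, not called. Fibroblast markers summed to between 27.9 and 64.9 TPM in binding and between 34.5 and 62.8 TPM in non-binding libraries, and 1 of 7, PDGFRB, named after its values were seen, was higher; the most abundant, COL1A1, DCN and LUM, were not called. Mucosal squamous markers summed to between 6.26 and 12.9 TPM in binding and between 11.9 and 13.6 TPM in non-binding libraries, with 1 tested and none called. The tested gene, TGM3, is also in the suprabasal list and made up most of the sum in every library. It averaged 7.53 ± 2.96 TPM in binding cells, against 11.2 ± 1.98 TPM in non-binding cells (log2 change -0.56). Of 6 skin gland markers, 5, among them DCD, were at 0 in all libraries.

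**Figure D5:**
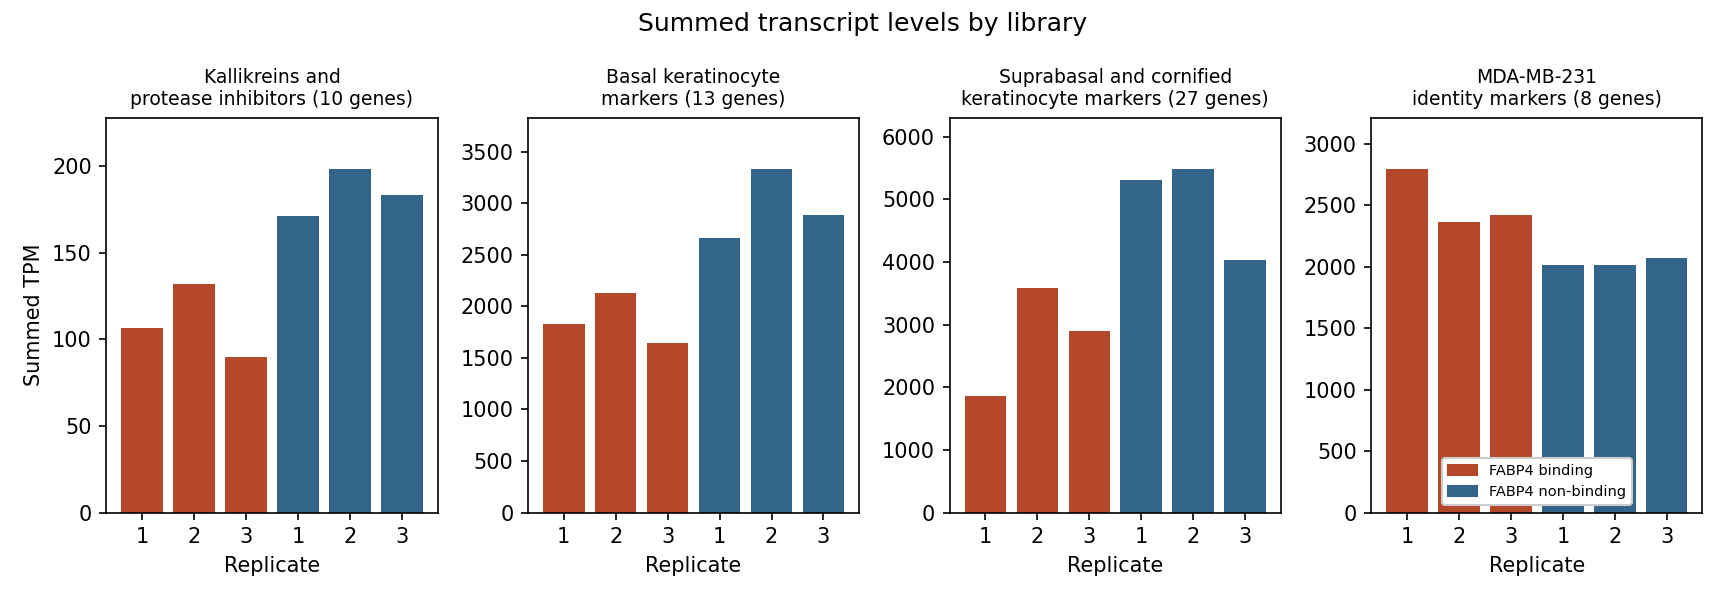
Summed TPM per library of the 10 kallikreins and inhibitors, of basal and of suprabasal and cornified keratinocyte markers, and of MDA-MB-231 identity markers; bars are libraries, red for FABP4 binding and blue for FABP4 non-binding. The first 3 sums are lower in every binding library than in any non-binding library, and the fourth is higher.

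The genes whose levels ran most alike were found by Pearson's r over the 6 libraries between log2(TPM + 1) of a gene and the mean log2(TPM + 1) of the 10. Of 15564 other tested genes, 128 reached an r of 0.95. The closest were KRT6A, a keratin of activated keratinocytes (r = 0.998), TGM1, the transglutaminase of the cornified envelope (r = 0.995), LY6D, a surface protein of squamous cells (r = 0.995), the homeobox gene PBX3 (r = 0.993) and the adhesion gene NECTIN1 (r = 0.993). The 6 points fall into 2 groups that differ in level, which raises any such r. KRT6A had 250, 340 and 209 TPM in binding libraries, against 511, 597 and 499 TPM in non-binding libraries. Its order of the binding libraries was that of KLK5 and KLK7. The mean of the 10 genes has this order too, so the choice of KRT6A by r favours it.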

How the data were processed

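Total RNA was depleted of ribosomal RNA and randomly primed, per the labels' protocols, and mapped to hg38, per the submitters' processing notes. The deposited values were taken as TPM, since each of the 6 columns sums to 1000000, but no label names the unit. That sum would also hold for shares not corrected for transcript length. Aligner, quantifier, annotation and strand setting: not given in the sources used here. Depth cannot be read from TPM, so no counting interval, floor or count test was possible, and reads of similar kallikrein paralogs may have been divided between genes.

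A gene was tested if 3 or more libraries had 1 TPM or more (15574 genes). Using log2(TPM + 1), limma 3.58.1 (R 4.3.3) was fitted without covariates and with a trend of variance on intensity, and p-values were adjusted by Benjamini-Hochberg over all tested genes, with 0.05 as threshold. Log2 changes are binding minus non-binding and understate the change of low genes. The filter was applied anew when a library was left out. The script was tested on simulated data. Positions and overlaps come from GENCODE release 29 (hg38), which held 99.0% of the identifiers.

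The 10 genes and all lists were chosen with earlier results of these data known. A gene of the transcription factor list is not reported here, and the counts of that list leave it out. Named genes were the 10, every called gene of each related list or else its most abundant gene, the 5 most alike genes, and the 3 most abundant markers of each marker list, of which not all are printed. Alternatives were another pseudocount, other filters, other scalings, no intensity trend, a replicate block and each library left out.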

Additional observations from a re-analysis of the deposited data

How the results depend on the processing

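The number of the 10 genes called lower, 4 as reported, was 1 without a filter, 7 with the common median, 2 with TPM rescaled without mitochondrial transcripts, 2 without an intensity trend and between 0 and 2 with each library left out. It was 3 with a pseudocount of 0.1 and 6 with quantile normalization. With the stricter filter (at least 1 TPM in all 6 libraries, which leaves out KLK6) it was 4. Of all tested genes, 7.12% were lower as reported, 1.86% without a filter and 3.64% without an intensity trend. The share was 6.68% with that pseudocount and 10.2% with the stricter filter. Shares for the scalings and for each library left out are given above. No alternative called a gene of the 10 higher, also at an unadjusted p under 0.05 by limma, and all log2 changes of the 10 stayed negative; since the fits reuse the same libraries, this is a weak check. The number of all genes called, 4156, was 1873 without a filter, 2443 with quantile normalization, 2559 without an intensity trend and between 186 and 2941 with each library left out. The cause was not tested.

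The median log2 change of all genes was 0.36 as reported, 0.04 after common-median scaling, 0.11 under quantile normalization and 0.45 under the rescaling. SPINK6, at -0.07 as reported, had log2 changes between -0.60 and 0.44 with each library left out, positive at 0.44 without binding replicate 3 and at 0.44 without non-binding replicate 1. With the replicate number as a block, 3 of the 10 genes (KLK5, KLK6 and KLK7) were lower, against 7.27% of all tested genes. In both directions, 4306 genes were called under the block. The calls of KLK10, SERPINB5 and ZNF750 were lost under the block. Deviations of same-numbered libraries from their group means correlated at 0.03, -0.02 and 0.03 over genes. Not every library correlated best with its own number. Correlations this weak cannot settle whether a number marks a shared culture or sort, and no label says so. TPM keep no depth, so what depth limits is unknown; genes near 1 TPM, such as KLK6, depend most on the pseudocount.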
